A study of Homo sapiens with 28 samples.

Results

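The transcripts of the mitochondrial genome were followed in SK-N-MC cells, written SKNMC in the labels, an established Ewing sarcoma cell line. They were taken as every gene of the 48 h table of normalised counts whose name starts with MT-, which gave 37 of 35488 genes, namely 2 ribosomal RNAs, 13 messenger RNAs and 22 transfer RNAs. Each of 4 derivatives of the line carried a doxycycline-inducible short hairpin RNA, either a scrambled hairpin (shScramble), a hairpin against FLI1 (shFLI1, labelled as a knockdown of the fusion EWS-FLI1), or 1 of 2 hairpins against the chromatin remodeller CHD4 (shCHD4#1 and shCHD4#2). All cells, controls included, received 100 ng/ml doxycycline, for 24 or 48 h. There were 5 shScramble libraries and 3 of each knockdown at each time, 28 in all, and the labels call the samples biological replicates of this single line. EWS-FLI1 is the fusion transcription factor that drives Ewing sarcoma, and CHD4 is the ATPase of the NuRD chromatin remodelling complex.

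Human mitochondrial DNA is a small circle, densely filled with genes that have no introns, and both of its strands are transcribed by the polymerase POLRMT with the factors TFAM and TFB2M into long precursors. Most genes are read in one direction, and MT-ND6 and a minority of the tRNAs are read in the other; in nearly all places tRNAs stand between the other genes, and their excision by RNase P and ELAC2 releases the rRNAs and mRNAs. The rRNAs build the mitochondrial ribosome, the tRNAs serve it, and the mRNAs encode subunits of respiratory complexes I, III and IV and of ATP synthase. In the annotation used here (GENCODE 29, GRCh38), 28 members lie on the plus strand of chromosome MT and 9 on the minus strand, the latter being MT-ND6 and 8 tRNAs. The minus-strand members together are called the minority-strand genes.

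The tRNAs that carry the results are shown from the transcript sequences of the annotation, as the gene reads (5′ to 3′, with t for u and without the added CCA end), and the capitals mark the anticodon. MT-TF, MT-TV and MT-TL1 flank the rRNA genes on the plus strand and held most tRNA reads, and MT-TQ, MT-TE and MT-TP are the minus-strand tRNAs that passed the test in shFLI1 cells at 48 h. MT-TE and MT-TP lie on either side of MT-CYB and MT-TT, and MT-TE directly precedes MT-ND6 in the direction in which both are read.
MT-TF (chrM:577-647, plus strand): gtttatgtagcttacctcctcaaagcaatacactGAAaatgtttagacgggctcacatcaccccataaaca
MT-TV (chrM:1602-1670, plus strand): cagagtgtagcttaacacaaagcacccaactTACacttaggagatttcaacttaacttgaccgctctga
MT-TL1 (chrM:3230-3304, plus strand): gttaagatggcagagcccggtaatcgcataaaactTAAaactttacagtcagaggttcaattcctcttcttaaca
MT-TQ (chrM:4329-4400, minus strand): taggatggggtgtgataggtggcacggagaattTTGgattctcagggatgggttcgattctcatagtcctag
MT-TE (chrM:14674-14742, minus strand): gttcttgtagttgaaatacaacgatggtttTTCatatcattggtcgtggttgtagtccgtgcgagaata
MT-TP (chrM:15956-16023, minus strand): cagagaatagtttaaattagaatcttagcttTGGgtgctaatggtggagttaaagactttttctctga
MT-TF carries phenylalanine, MT-TV valine, MT-TL1 leucine, MT-TQ glutamine, MT-TE glutamate and MT-TP proline.

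The values are normalised read counts, deposited per gene and library as reads divided by 1 size factor per library, and the recovered reads summed to 46102707 to 64775441 per library. CHD4 normalised counts were 9343 to 13099.5 in shScramble, 2959 to 3482 in shCHD4#1 and 2722 to 2801 in shCHD4#2 at 48 h, and 10099 to 12879, 2747 to 3226 and 2785 to 3465 at 24 h. Reads over FLI1, which also come from the fusion, were 3616 to 4735 in shScramble and 1733 to 2021 in shFLI1 at 24 h, and 3091 to 4306 and 1566 to 1829.6 at 48 h. In the labels, the genotype field of shScramble at 48 h names a CHD4 knockdown while title and treatment name the scrambled hairpin, and CHD4 levels there overlapped those of shScramble at 24 h. All 7 Ewing line markers chosen were tested, namely CD99, NKX2-2, STEAP1, NR0B1, PRKCB, FLI1 and EWSR1. Among them are FLI1, which shFLI1 targets, and EWSR1, which had the highest mean of the 7 (15971 normalised counts). The sum of the 7 was 38445 to 50007 normalised counts in shScramble, 21136 to 21372 in shFLI1, 39913 to 44324 in shCHD4#1 and 24983 to 34897 in shCHD4#2 at 48 h. Of the 4 blood markers, only PTPRC passed the filter and HBB is not in the table used here, and their sum was 30.6 to 54.8 in shScramble and 276 to 333 in shFLI1 at 24 h, and 42.9 to 54.6 and 124 to 222 at 48 h. Of the 6 fibroblast markers, 4 rose and 1 fell with shFLI1 at 48 h: PDGFRA (4.76), LUM (3.87), DCN (3.79) and COL1A2 (3.31) rose, COL1A1 fell (-1.47) and THY1 was at 0.29 on the log2 scale. The 4 that rose had low means over all 28 libraries (33.3, 22.2, 11.1 and 18.8 in that order). They may have passed the filter only through the shFLI1 libraries, where they are high. The sum of the 6, held mostly by COL1A1 and THY1, was 1441 to 2421 in shScramble and 1185 to 2148 in shFLI1. At 24 h 3 of the 6 rose and 1 fell. Of all genes tested, 32.2% were higher and 31.7% lower at 48 h, and 24.2% and 22.5% at 24 h. Of the 2 epithelial markers tested, CDH1 rose (3.40) and KRT18 fell (-1.24) at 48 h, and the list summed to 8650.3 to 12859 in shScramble and 4323 to 4536 in shFLI1. The endothelial markers summed to 40.2 to 88.7 and 71.6 to 82.8, and the part of these markers in the mitochondrial results was not tested. The libraries fall into 2 kinds by their share of reads on processed pseudogenes, with 12 of the first kind (at each time, the libraries numbered 1 and 2 in the shScramble, shCHD4#1 and shCHD4#2 groups) and 16 of the second, among them all shFLI1 libraries. In bulk RNA, fewer cells and less RNA per cell cannot be told apart.

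Mitochondrial rRNA took a large share of all reads, and the share was highest in shFLI1 cells at 48 h, where the shares of mitochondrial mRNA and tRNA were low. The rRNA share was 18.0, 16.3, 16.3, 16.9 and 16.2% of reads in the 48 h shScramble libraries and 22.4, 22.5 and 22.1% in the 48 h shFLI1 libraries, so the groups did not overlap. At 24 h it was 15.7, 17.8, 15.2, 15.7 and 16.4% in shScramble and 19.9, 18.0 and 19.3% in shFLI1, where the groups also did not overlap but lay closer together. In the CHD4 groups the rRNA share was 16.9 to 17.9% (shCHD4#1, 24 h), 15.7 to 17.7% (shCHD4#2, 24 h), 16.3 to 19.5% (shCHD4#1, 48 h) and 16.6 to 17.7% (shCHD4#2, 48 h), each overlapping its controls. The mRNA share was 0.979, 0.935, 0.890, 1.04 and 0.907% in 48 h shScramble and 0.778, 0.853 and 0.860% in 48 h shFLI1, below every control, whereas at 24 h it was 1.01 to 1.07% in shFLI1 against 0.750 to 1.04% in shScramble. Mitochondrial mRNA thus took a smaller share in shFLI1 cells than in the controls at 48 h and not at 24 h. With shCHD4#1 at 48 h the mRNA share was 1.06, 1.18 and 1.32%, above every shScramble library, and with shCHD4#2 it was 0.878, 0.727 and 0.998%, overlapping them. The tRNA share was 0.00954, 0.00522, 0.00811, 0.00846 and 0.00785% in 48 h shScramble, 0.00370, 0.00440 and 0.00585% in shFLI1, 0.0120, 0.00939 and 0.0103% in shCHD4#1 and 0.00908, 0.00651 and 0.00688% in shCHD4#2. Only the lowest shScramble library, replicate 2, came down to the shFLI1 values. The number of rRNA reads per mRNA read was 16.2 to 18.4 in shScramble and 25.7 to 28.8 in shFLI1 at 48 h, and 15.6 to 21.9 and 17.3 to 19.0 at 24 h. These sums are descriptions and were not tested. The library kit is sold with an rRNA removal step, its version is not given, and how much mitochondrial rRNA it left in each library was not tested.

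**Figure D1:**
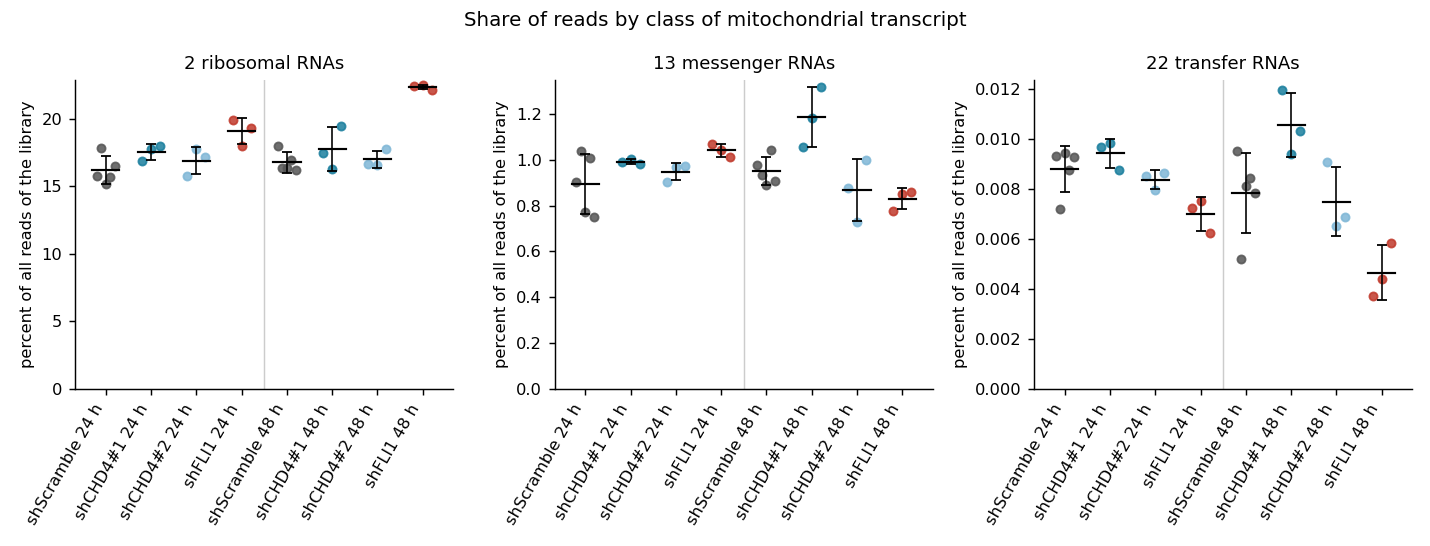
Share of all reads (percent, vertical axes) that fell on mitochondrial rRNAs, mRNAs and tRNAs in each of the 28 libraries, by hairpin and time; points are libraries, and lines with error bars are group means ± SD. At 48 h the 3 shFLI1 libraries lie at 22.1 to 22.5% for rRNA, above all others.

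Levels of different genes were ranked per length, as reads per kilobase of gene, scaled to the library's total (RPKM), averaged over all 28 libraries. Ratios and shares between genes given elsewhere use counts not divided by length. MT-RNR2, the 16S rRNA of the large ribosomal subunit (chrM positions 1671 to 3229), stood at 105345 and MT-RNR1, the 12S rRNA of the small subunit (648 to 1601), at 13557. Among the mRNAs the cytochrome c oxidase subunits of complex IV came first on this scale, MT-CO3 at 3473, MT-CO1 at 2511 and MT-CO2 at 1653. The ATP synthase subunits followed, MT-ATP6 at 519.8 and MT-ATP8 at 485. Of the complex I subunits, MT-ND3 stood at 413, MT-ND1 at 331, MT-ND4 at 261, MT-ND4L at 231, MT-ND2 at 103, MT-ND5 at 73.8 and MT-ND6, the minority-strand mRNA, at 38.9, and cytochrome b of complex III (MT-CYB) stood at 222. The tRNAs MT-TF (361), MT-TL1 (319) and MT-TV (228), which neighbour the rRNA genes, were far above the fourth, MT-TT, at 56.2, and together they held 74.5 to 85.8% of the tRNA normalised counts in a library. The other tRNAs ran from MT-TI (20.3) down to MT-TS1 (2.62), whose mean normalised count of 9.62 was the only one under the minimum of 10 for testing, so 36 members were tested. Mature tRNAs are shorter than the inserts such libraries usually hold, and which share of them was captured was not tested. MT-ATP8 and MT-ATP6 share 46 bases and MT-ND4L and MT-ND4 share 7, and how reads in these overlaps were assigned is not given in the sources used here.

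After 24 h of shFLI1, 4 mitochondrial transcripts were lower than in shScramble, the mRNA MT-ND6 and the tRNAs MT-TF, MT-TV and MT-TE, and both mRNAs of the ATP synthase were higher. MT-ND6, a complex I subunit, had normalised counts of 1269, 1377, 1592, 1683 and 1341 in the 5 shScramble libraries and 688, 642 and 1015 in the 3 shFLI1 libraries (log2 difference -0.92, SE 0.15, limma adjusted p = 1.96e-04). All shFLI1 libraries lay below all controls, and their mean was 53.8% of the control mean. The MT-TE counts were 25.0, 21.1, 23.3, 21.1 and 25.3 in shScramble and 14.5, 8.93 and 18.8 in shFLI1 (log2 difference -0.73, SE 0.25, limma adjusted p = 0.0247), again without overlap. MT-TF had 1697, 1095, 2094, 1423 and 2380.0 in shScramble and 1252, 1059.9 and 804 in shFLI1 (log2 difference -0.71, SE 0.21, limma adjusted p = 0.0107), and the highest shFLI1 library overlapped the lowest control. MT-TV, which was 977, 821, 1039.7, 1005 and 1164 in shScramble and 735, 615 and 848 in shFLI1, fell by less (log2 difference -0.45, SE 0.13, limma adjusted p = 0.00880), and the groups overlapped. MT-ATP8 was 4545, 4629, 4219, 5329 and 4121 in shScramble and 10842, 6244 and 4831 in shFLI1 (log2 difference 0.60, SE 0.20, limma adjusted p = 0.0238), and MT-ATP6, at 17114, 17051, 14252, 22684 and 15615 in shScramble and 29918, 26904 and 17001 in shFLI1, rose with it (log2 difference 0.48, SE 0.17, limma adjusted p = 0.0325). In both genes the shFLI1 libraries overlapped the highest controls, and without shFLI1 replicate 1 the MT-ATP8 difference was 0.27 (limma adjusted p = 0.175). Other calls also rested on 1 shFLI1 library: without replicate 2, limma gave MT-TV -0.33 (adjusted p = 0.0706) and MT-TE -0.46 (adjusted p = 0.170), and without replicate 3 it gave MT-TF -0.54 (adjusted p = 0.0741). The MT-ATP6 call was lost without shFLI1 replicate 1 or 2 or shScramble replicate 3 or 5, with values from 0.32 to 0.45, and that of MT-ND6 held in all 14 such fits. The 6 members called are 16.7% of the 36 tested, against 46.7% of all 21025 genes tested, a share under that of all genes. In their ranges, 3 members were lower in every shFLI1 library than in any control and 0 higher, against 21.4% and 23.7% of all genes.

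The rRNAs were not called at 24 h of shFLI1, with log2 differences of 0.24 for MT-RNR1 (limma adjusted p = 0.327) and 0.17 for MT-RNR2 (adjusted p = 0.736). Of the 13 mRNAs, 11 had a difference above 0, and the 10 that did not pass the test ran from -0.05 to 0.85. Single libraries carried some of the larger values. MT-ND4L, a complex I subunit, was 5612, 11948 and 2438 in the 3 shFLI1 libraries against 2154 to 3871 in shScramble, so the second library stood apart (log2 difference 0.85, SE 0.36, limma adjusted p = 0.0706). MT-TH, the histidine tRNA, was 49.6, 139.6 and 27.6 in shFLI1 against 21.1 to 40.1 in shScramble, high in the same library (log2 difference 0.97, SE 0.39, limma adjusted p = 0.0561). MT-CYB had 17375, 16369, 6274, 10883 and 6514 in shScramble and 17287, 17439 and 9773 in shFLI1, which is a log2 difference of 0.45 (limma adjusted p = 0.349). The first 2 shScramble libraries, of the first library kind, were the high ones, and with library kind as a term the difference was 0.87 (adjusted p = 0.00141). The proline tRNA MT-TP had 53.7, 44.6, 83.0, 105 and 90.3 in shScramble and 34.1, 23.5 and 85.1 in shFLI1, and its difference of -0.79 (adjusted p = 0.101) became -1.10 (adjusted p = 0.00633) with that term.

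At 48 h of shFLI1, MT-RNR1 was called higher and 9 mRNAs and tRNAs were called lower. None of the tested mRNAs and tRNAs was called higher, and most of them were not called. MT-RNR1, the 12S rRNA, had normalised counts of 715223, 421118, 586614, 608894 and 569588 in shScramble and 1185182, 1180643 and 1018071 in shFLI1 (log2 difference 0.98, SE 0.19, limma adjusted p = 4.35e-04). Every shFLI1 library exceeded every control, and the mean was 1.94 times the control mean. MT-RNR2, the 16S rRNA, had 8606301, 7653745, 8616259, 8753826 and 8443217 in shScramble and 11523438, 10925109 and 10291706 in shFLI1. Here too every shFLI1 library exceeded every control, at 1.297 times the control mean, but the difference did not pass the test (log2 difference 0.38, SE 0.19, limma adjusted p = 0.106). It passed with edgeR's quasi-likelihood test (log2 difference 0.39, adjusted p = 0.00215), with DESeq2 (0.39, adjusted p = 3.6e-05) and, with limma, when scaled to total reads (0.37, adjusted p = 0.0281) or with library kind as a term (0.31, adjusted p = 0.0363). With the other planned settings it did not pass, libraries of the second kind alone (0.34) included. The number of MT-RNR2 reads per MT-RNR1 read was 12.03, 18.2, 14.7, 14.4 and 14.8 in shScramble and 9.72, 9.25 and 10.1 in shFLI1, so the 2 rRNAs, which are read from the same stretch of DNA, differed by unequal amounts. The 10 members called are 27.8% of the 36 tested, against 63.9% of all genes tested in this comparison. Over their ranges, 2 members were higher and 7 lower in every shFLI1 library, against 31.5% and 30.6% of all genes.

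Among the 13 mRNAs, 4 fell at 48 h of shFLI1, a share near the 31.7% of all genes called lower. The median log2 difference over all 13 was -0.30, against 0.01 over all genes tested. MT-ND6 fell furthest of them, with normalised counts of 1205, 951, 1183, 1417 and 1193 in shScramble and 158, 230.0 and 384 in shFLI1 (log2 difference -2.29, SE 0.27, limma adjusted p = 4.42e-06). The highest shFLI1 library was far below the lowest control, and the mean was 21.6% of the control mean. MT-ND2, a complex I subunit, was 6509.8, 4250.0, 4883, 5856 and 4040.1 in shScramble and 2322, 3783 and 3728 in shFLI1, with no overlap (log2 difference -0.65, SE 0.19, limma adjusted p = 0.00753). MT-CO3 was 127246, 132931, 150972, 169906 and 143277 in shScramble and 115415, 103306 and 109617 in shFLI1, also with no overlap (log2 difference -0.40, SE 0.15, limma adjusted p = 0.0295). MT-CO2 was 62982, 49331, 56662, 83262 and 56285 in shScramble and 39395, 39670.2 and 51417 in shFLI1, and the groups overlapped (log2 difference -0.49, SE 0.17, limma adjusted p = 0.0186). The last 3 calls depended on single libraries: without shFLI1 replicate 1, MT-ND2 was at -0.42 (adjusted p = 0.0654) and MT-CO2 at -0.43 (adjusted p = 0.0776). Without shFLI1 replicate 2, limma gave MT-CO2 -0.43 (adjusted p = 0.0764) and MT-CO3 -0.36 (adjusted p = 0.0993), and the MT-CO3 call was also lost without shFLI1 replicate 3 (-0.40) or shScramble replicate 3 (-0.38) or 4 (-0.34).

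The other 9 mRNAs did not pass the test at 48 h of shFLI1. For complex I, the limma log2 differences were MT-ND1 -0.53 (adjusted p = 0.173), MT-ND3 -0.30 (adjusted p = 0.135), MT-ND4 -0.34 (adjusted p = 0.404), MT-ND4L -0.20 (adjusted p = 0.435) and MT-ND5 -0.13 (adjusted p = 0.599). For MT-CYB of complex III the difference was 0.0033 (limma adjusted p = 0.994), and for MT-CO1 of complex IV it was 0.07 (adjusted p = 0.688). The ATP synthase mRNAs, higher at 24 h, were at -0.17 for MT-ATP8 (limma adjusted p = 0.661) and 0.10 for MT-ATP6 (adjusted p = 0.688). Single control libraries set part of the spread, since MT-ND1 was 18435, 10437, 12292, 15772 and 41128 and MT-ND4 24699.9, 20605, 47002, 17032 and 9887 in shScramble, with 1 high library in each gene and a different one. MT-ND6 was also set against MT-ND5, which lies next to it and is read from the other strand. MT-ND6 normalised counts were 13.2, 14.3, 18.5, 18.1 and 23.5% of those of MT-ND5 in shScramble and 2.01, 4.13 and 6.76% in shFLI1 at 48 h. At 24 h they were 16.4 to 27.0% in shScramble and 6.91 to 16.6% in shFLI1, where the highest shFLI1 library lay just inside the control range.

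**Figure D2:**
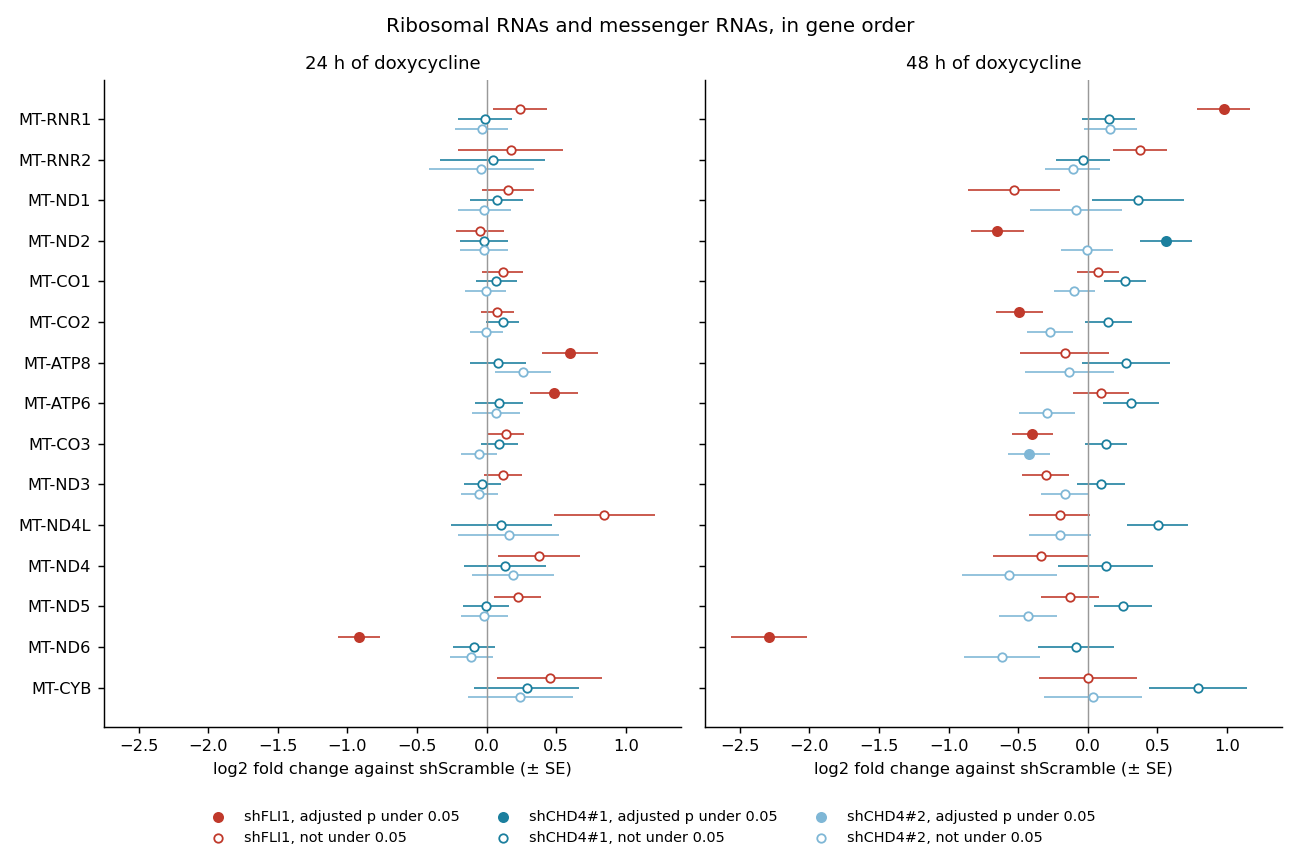
Log2 difference from shScramble (horizontal axis, log2 of normalised count + 1, with the standard error of the fit) of the 2 rRNAs and 13 mRNAs in gene order, at 24 h and 48 h, for each of the 3 knockdowns; filled points passed the test. At 48 h of shFLI1, MT-RNR1 lies at 0.98 and MT-ND6 at -2.29.

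Of the 21 tRNAs tested, 5 fell and 0 rose at 48 h of shFLI1, and their median log2 difference was -0.42. The 5 are 23.8% of the tRNAs tested, against 31.7% of all genes lower, so the share called lower was under that of all genes. The proline tRNA MT-TP had normalised counts of 64.3, 67.0, 78.3, 72.8 and 82.9 in shScramble and 8.27, 13.8 and 18.7 in shFLI1 (log2 difference -2.40, SE 0.23, limma adjusted p = 3.79e-07), with every shFLI1 library far under every control. The glutamate tRNA MT-TE, at 26.8, 9.28, 25.4, 22.4 and 19.6 in shScramble and 3.54, 2.30 and 8.31 in shFLI1, fell by 1.98 on the log2 scale (SE 0.38, limma adjusted p = 3.58e-04). The glutamine tRNA MT-TQ was 24.1, 26.8, 29.5, 27.1 and 15.3 in shScramble and 10.6, 9.20 and 6.23 in shFLI1 (log2 difference -1.39, SE 0.30, limma adjusted p = 8.47e-04), again without overlap. MT-TP, MT-TE and MT-TQ are read from the minority strand, like MT-ND6, and their shFLI1 values rest on few reads, 37, 13 and 23 over the 3 libraries. The phenylalanine tRNA MT-TF, with far more reads, was 1556, 635, 1408, 1241 and 1328 in shScramble and 511, 565 and 472 in shFLI1 (log2 difference -1.20, SE 0.24, limma adjusted p = 5.86e-04). Only shScramble replicate 2 came near the shFLI1 values, and the groups did not overlap. The leucine tRNA MT-TL1 was 1554, 780.3, 1282, 1213 and 1101 in shScramble and 692, 835 and 698 in shFLI1, with overlap (log2 difference -0.65, SE 0.17, limma adjusted p = 0.00466). The calls of MT-TF, MT-TL1, MT-TQ, MT-TE, MT-TP, MT-RNR1 and MT-ND6 held when any one library of the 48 h groups was left out. Of the abundant tRNAs, MT-TV did not pass, at 869.6, 534, 1193, 1146 and 1213 in shScramble and 394, 436 and 1078 in shFLI1, where the third shFLI1 library stood apart (log2 difference -0.73, SE 0.32, limma adjusted p = 0.0608). MT-TT, at 397, 153, 97.7, 147 and 98.1 in shScramble and 112, 113 and 135 in shFLI1, did not pass either (log2 difference -0.36, SE 0.39, limma adjusted p = 0.437). The other 14 tRNAs tested did not pass, with differences between -0.54 and 0.33.

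Grouped by strand, all 8 tested minority-strand genes had a 48 h shFLI1 difference below 0, of which 4 passed the test, and their median was -0.92. The 28 plus-strand genes had a median of -0.25, with 1 higher and 5 lower past the test. The summed normalised count of the 8 minority-strand tRNAs was 177, 206, 227, 196 and 214 in 48 h shScramble and 82.7, 85.1 and 85.1 in 48 h shFLI1. It was 117, 99.4 and 99.0 with shCHD4#2 and 164, 195 and 167 with shCHD4#1 at 48 h, so the shCHD4#2 libraries also lay below every control. The 14 plus-strand tRNAs summed to 4769.6, 2373, 4341, 4484 and 4161 in 48 h shScramble and 2017, 2285 and 2905 in shFLI1. The 4 of 8 minority-strand genes called lower stand against 31.7% of all genes. Against the mean of both CHD4 hairpins at 48 h, the minority-strand median for shFLI1 was -0.25, with 3 of 8 above 0, and the plus-strand median was -0.32, so the medians of the strands lay close together in that comparison. At 24 h the minority-strand median was -0.47 with shFLI1, -0.41 with shCHD4#1 and -0.40 with shCHD4#2, all against the same shScramble libraries. The split by strand was described with the calls in view and was not tested. The strand setting of the read counting is not given in the sources used here, and each minority-strand gene lies opposite the precursor of the other strand, so reads antisense to it cannot be told apart from its own if strand was not used.

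**Figure D3:**
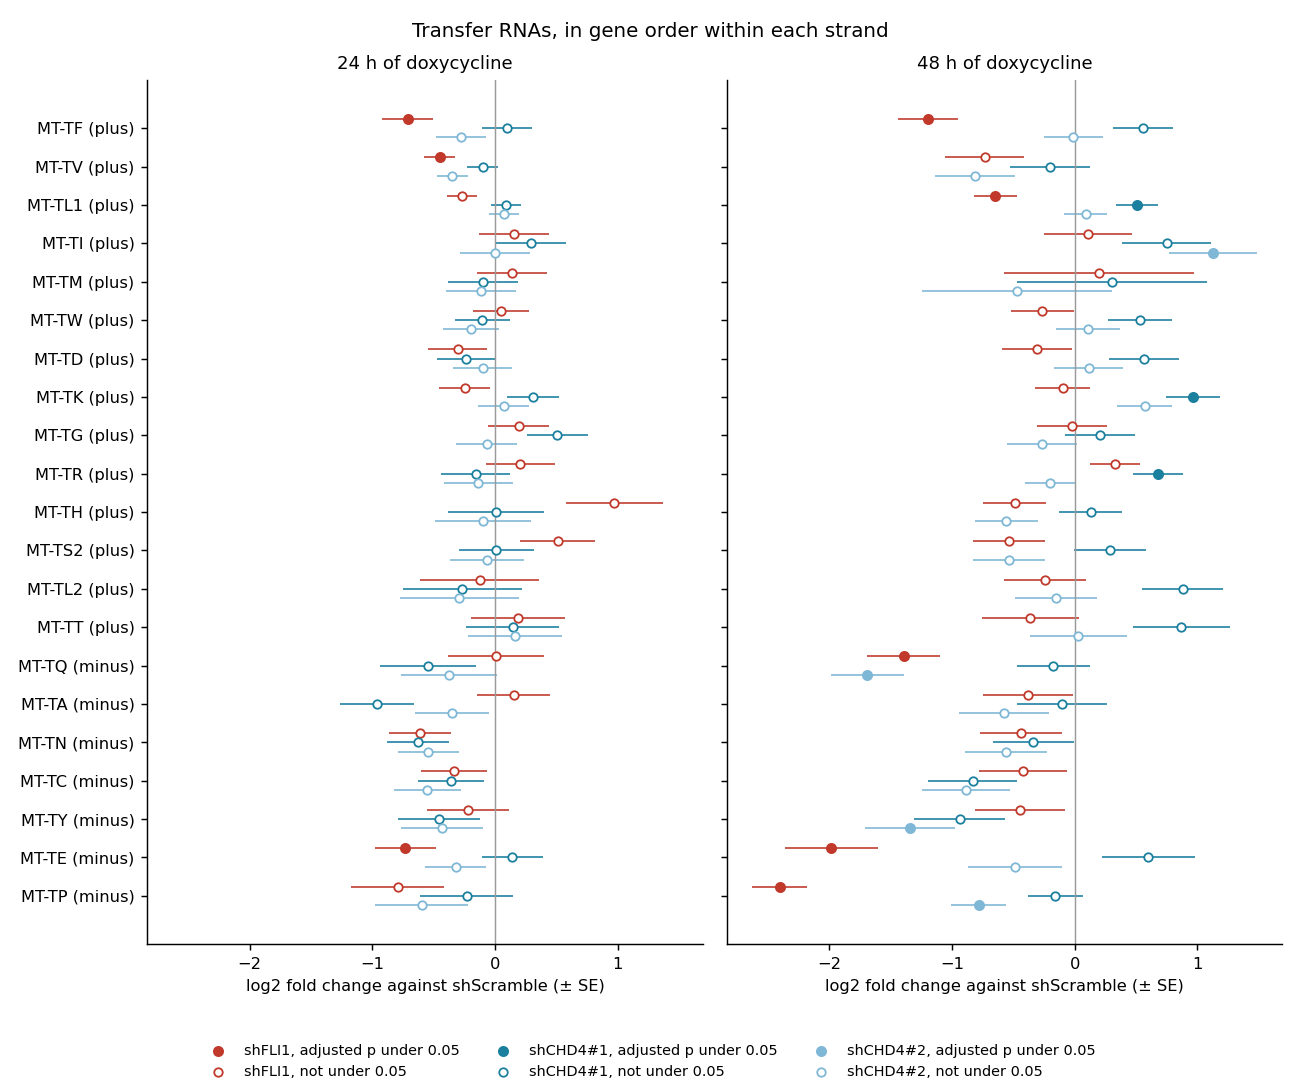
Log2 difference from shScramble (horizontal axis, log2 of normalised count + 1, with the standard error of the fit) of the 21 tested tRNAs, in gene order within each strand, at 24 h and 48 h for the 3 knockdowns; filled points passed the test. MT-TP, MT-TE and MT-TQ, on the minus strand, lie at -2.40, -1.98 and -1.39 with shFLI1 at 48 h.

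**Figure D4:**
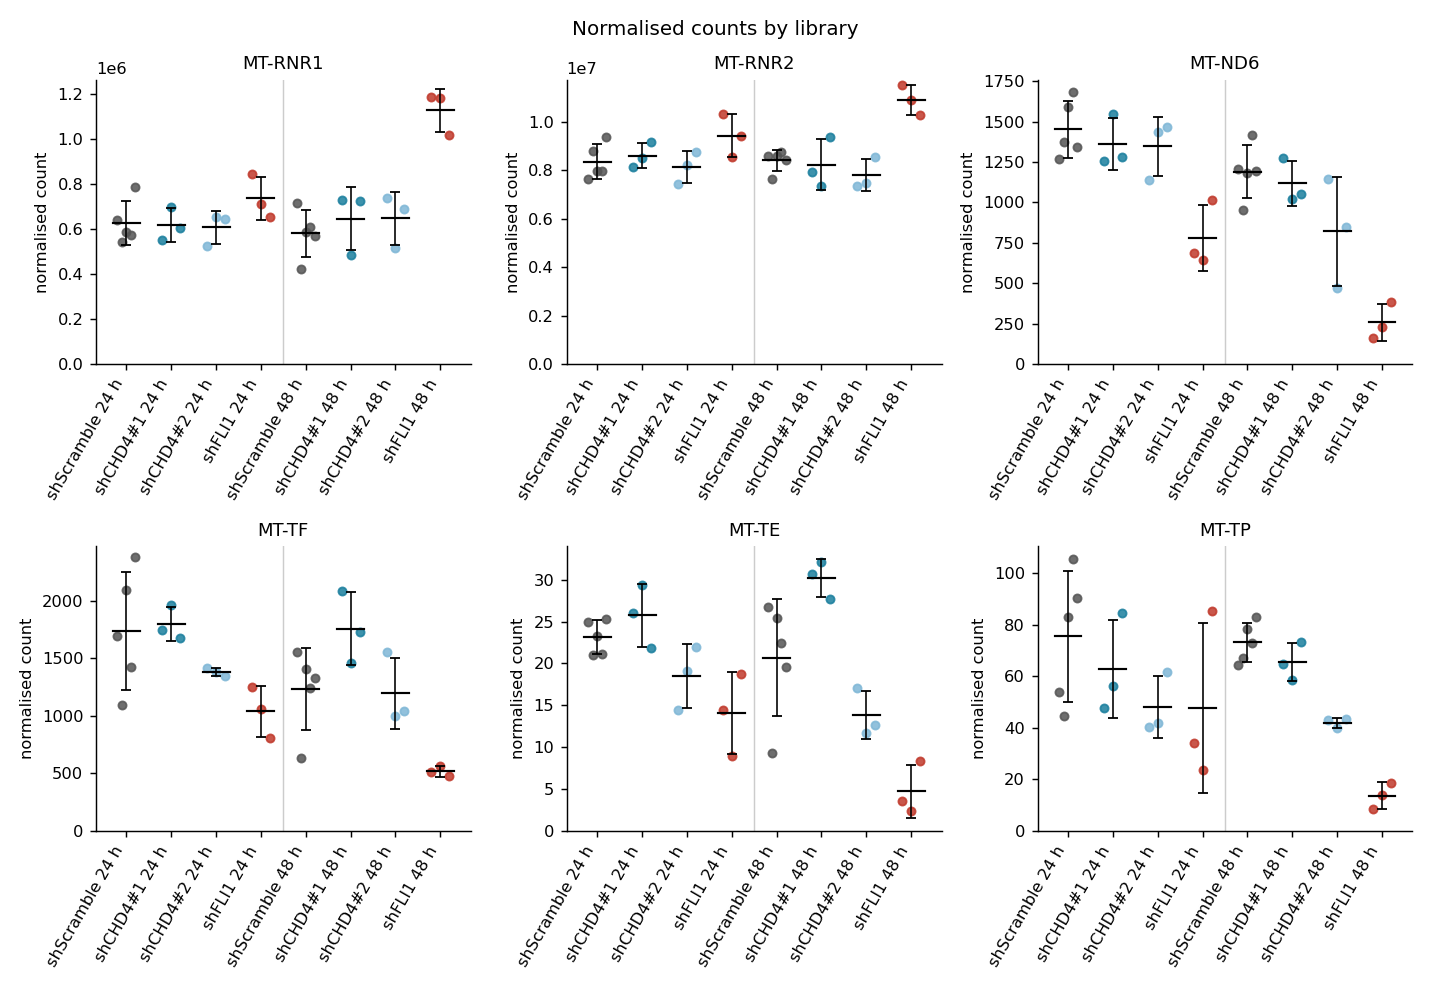
Normalised count (vertical axes, linear and starting at 0) of MT-RNR1, MT-RNR2, MT-ND6, MT-TF, MT-TE and MT-TP in each library, with group means ± SD, by hairpin and time. With shFLI1 at 48 h, MT-RNR1 runs from 1018071 to 1185182, above all other libraries, and MT-ND6 from 158 to 384, below all others.

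The shFLI1 difference at 48 h was compared with that at 24 h in 1 fit over all 8 groups, and 4 members differed between the times, 1 upward and 3 downward, against 16.7% of all genes (7.22% and 9.44% by direction). The 48 h difference minus the 24 h difference was -1.37 for MT-ND6 on the log2 scale (SE 0.33, limma adjusted p = 0.00468) and -1.61 for MT-TP (SE 0.45, adjusted p = 0.0143), so both were further below the controls at 48 h. The MT-RNR1 difference was higher at 48 h by 0.74 (SE 0.25, limma adjusted p = 0.0456). For MT-TH it was -1.46 (SE 0.48, limma adjusted p = 0.0362), which includes the single high 24 h library of that tRNA. Leaving out 1 library at a time, the MT-ND6 call held in all 28 fits. The MT-RNR1 call was lost in 13 of them, with values between 0.63 and 0.84, and that of MT-TH in 8, with values between -1.98 and -0.83. That of MT-TP was lost without shFLI1 24 h replicate 3 (-1.09, limma adjusted p = 0.0700) or shFLI1 48 h replicate 1 (-1.32, adjusted p = 0.0629). In shScramble itself, no member was called by limma between the times (2 had an unadjusted p under 0.05), and edgeR and DESeq2 called none either. The background of that comparison was 0% of all genes, and 485 of the 21025 genes tested had an unadjusted p under 0.05.

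After 24 h of CHD4 knockdown no mitochondrial transcript passed the test with either hairpin, although CHD4 itself was down in both. With limma, 0 of 36 members were called with shCHD4#1, against 11.3% of all genes (5.21% higher and 6.14% lower), and 0 with shCHD4#2, against 11.1% (4.05% and 7.01%). At an unadjusted p of 0.05 there were 2 members with shCHD4#1 and 2 with shCHD4#2, against 5329 and 5150 of the 21025 genes tested. Neither edgeR nor DESeq2 called any member. The median log2 difference was 0.08 over the mRNAs and -0.10 over the tRNAs with shCHD4#1, and -0.01 and -0.20 with shCHD4#2. MT-RNR1 was 549735, 698208 and 604455 with shCHD4#1 and 524071, 654625 and 643849 with shCHD4#2, overlapping the shScramble range of 540419 to 788732 normalised counts. MT-ND6 was 1257, 1545 and 1281 with shCHD4#1 and 1139, 1433 and 1468 with shCHD4#2, overlapping shScramble (1269 to 1683). Between the hairpins at 24 h no member was called either (0 of 36, 0 at an unadjusted p of 0.05, 0 by edgeR and DESeq2), against 9.62% of all genes (5.62% higher with shCHD4#1 and 4% lower). At the unadjusted p of 0.05, 5034 of the 21025 genes tested passed between the hairpins. Over their ranges, 1 member was higher and 2 lower in every shCHD4#1 library than in shScramble, against 8.35% and 9.61% of all genes, and 0 higher and 1 lower in every shCHD4#2 library, against 7.06% and 9.67%, the asparagine tRNA MT-TN being lower with both hairpins without passing the test. Between the hairpins 4 were higher and 0 lower in every shCHD4#1 library, against 14.6% and 14.7%. With the same-numbered libraries of shScramble and the CHD4 hairpins as blocks and shFLI1 left out, 1 member was called with shCHD4#1 at 24 h (against 23.1% of all genes in that fit, and 0 members against 24.6% with shCHD4#2 and 27% between the hairpins), the alanine tRNA MT-TA (-0.95, limma adjusted p = 0.0476), whose values were 5.20, 7.78 and 6.95 against 12.97, 11.3, 17.2, 20.04 and 9.63 in shScramble.

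At 48 h the CHD4 hairpins parted. With shCHD4#1, 4 members rose and 0 fell, 11.1% of those tested against 28.4% of all genes (12.9% higher and 15.5% lower). In their ranges 5 were higher in every shCHD4#1 library, against 14.8% of all genes, and 0 lower, against 16.4%. They were the mRNA MT-ND2 and the tRNAs MT-TL1, MT-TK for lysine and MT-TR for arginine, the last 2 named after their values were seen. MT-ND2 was 7610.0, 7056 and 7610.0 with shCHD4#1, above the shScramble values of 6509.8, 4250.0, 4883, 5856 and 4040.1 (log2 difference 0.56, SE 0.19, limma adjusted p = 0.0376). MT-TL1 was 1794, 1458 and 1706, overlapping the shScramble range of 780.3 to 1554 (log2 difference 0.51, SE 0.17, limma adjusted p = 0.0412). MT-TK was 105, 117 and 78.1 against 78.6, 43.3, 39.7, 45.7 and 51.3 (log2 difference 0.96, SE 0.22, limma adjusted p = 0.00525), and the groups overlapped. MT-TR was 41.5, 41.9 and 47.4 against 25.0, 20.6, 26.5, 28.9 and 34.9, with no overlap (log2 difference 0.68, SE 0.20, limma adjusted p = 0.0217). Of the other members, MT-RNR1 was 731043, 482804 and 724874 (log2 difference 0.15, SE 0.19, limma adjusted p = 0.599) and MT-ND6 1275, 1023 and 1055 (log2 difference -0.09, SE 0.27, limma adjusted p = 0.851), both overlapping shScramble. All 12 plus-strand mRNAs lay above 0, with a median log2 difference of 0.27, and 13 of the 14 plus-strand tRNAs did, with a median of 0.55, against -0.01 over all genes. The 8 tested minority-strand genes had a median of -0.17, and 1 of them lay above 0. The MT-TK call held when any 1 library was left out, and that of MT-TR was lost without shCHD4#1 replicate 2 (0.71) or 3 (0.62). The MT-ND2 call was lost without any 1 shCHD4#1 library or shScramble replicate 2, 3 or 5, with limma values over all such fits from 0.48 to 0.66, and that of MT-TL1 without any 1 shCHD4#1 library, shScramble replicate 4 or 5 or shFLI1 replicate 1, with values from 0.37 to 0.61. The counts depended on single libraries as well: without shScramble replicate 1 there were 8 members called, and without shCHD4#1 replicate 3 there was 1.

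With shCHD4#2 at 48 h, 4 members fell and 1 rose, 13.9% of those tested against 37.9% of all genes (17.5% higher and 20.3% lower). In their ranges 1 was higher and 5 lower in every shCHD4#2 library, against 16.2% and 18.5% of all genes. The fall was in 3 minority-strand tRNAs, MT-TQ, MT-TY for tyrosine and MT-TP, and in the mRNA MT-CO3, and the isoleucine tRNA MT-TI rose. MT-TY and MT-TI were named after their values were seen. MT-TQ was 6.66, 5.42 and 8.42 with shCHD4#2, below the shScramble values of 24.1, 26.8, 29.5, 27.1 and 15.3 (log2 difference -1.69, SE 0.30, limma adjusted p = 5.28e-04). MT-TY was 13.3, 12.6 and 7.37 against 18.7, 34.0, 37.6, 25.2 and 32.7, with no overlap (log2 difference -1.34, SE 0.37, limma adjusted p = 0.0106). MT-TP was 42.8, 39.8 and 43.2, also below every shScramble library (log2 difference -0.78, SE 0.23, limma adjusted p = 0.0136). The MT-TQ values rest on 6 to 8 reads per shCHD4#2 library, against 14 to 29 in shScramble. MT-CO3 was 105208, 89125 and 132521 and overlapped shScramble (log2 difference -0.42, SE 0.15, limma adjusted p = 0.0366). MT-TI was 73.2, 79.5 and 292 against 58.0, 36.1, 58.0, 70.0 and 54.5, and the third library set the size of that difference (log2 difference 1.13, SE 0.36, limma adjusted p = 0.0233), which without it was 0.49 (adjusted p = 0.136). Without the same library MT-TY was at -1.09 (limma adjusted p = 0.0611), and without replicate 2 MT-TP was at -0.75 (adjusted p = 0.0539) and MT-CO3 at -0.29 (adjusted p = 0.208). The MT-CO3 call was also lost without shCHD4#2 replicate 1 or shScramble replicate 3, 4 or 5, and that of MT-TQ held in all 14 fits. Leaving out shCHD4#2 replicate 2 or 3 took the count of members called to 3. All 8 tested minority-strand genes lay below 0 with shCHD4#2, with a median log2 difference of -0.70, whereas the 28 plus-strand genes had a median of -0.14. MT-ND6 was 1145, 473 and 847, a difference of -0.61 (limma adjusted p = 0.0921), with the second library low. No member was called with both CHD4 hairpins in the same direction at either time.

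The same-numbered libraries of shScramble and both CHD4 hairpins deviated together at both times, so the 48 h CHD4 comparisons were also fitted with the replicate number as a block and shFLI1 left out, a fit chosen after seeing the data. In that blocked fit 29% of all genes were called with shCHD4#1, 41.3% with shCHD4#2 and 46.3% between the hairpins at 48 h. Of the 36 members, 9 rose with shCHD4#1, adding MT-TF (0.64), MT-ND1 (0.73), MT-ATP6 (0.40), MT-TM (1.21) and MT-TD (0.68) on the log2 scale. With shCHD4#2, 7 fell and 2 rose in the blocked fit. It added the tRNA MT-TV (-0.60, limma adjusted p = 0.00936) and the complex I mRNAs MT-ND4 (-1.02, adjusted p = 0.0153), MT-ND5 (-0.51, adjusted p = 0.0173), MT-ND6 (-0.52, adjusted p = 0.0445) and, higher, MT-ND1 (0.29, adjusted p = 0.0446). It lost MT-CO3 (-0.35, limma adjusted p = 0.0519). For MT-ND4, the high shScramble library was replicate 3 (47002 normalised counts), blocked with shCHD4#2 replicate 3 (13474), and the blocked fit was not run without it. The MT-ND1 difference without the block was -0.09, and shScramble replicates 4 and 5, the latter with the high MT-ND1 value, have no CHD4 library of their number. In the blocked fit MT-ND6 and MT-ND1 therefore passed in opposite directions with shCHD4#2.

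Set directly against each other at 48 h, the CHD4 hairpins differed in 8 members, all higher with shCHD4#1, 22.2% of those tested against 37.9% of all genes (19.2% higher and 18.6% lower). They were 5 mRNAs, MT-ND2, MT-ND4L, MT-ND5, MT-ATP6 and MT-CO3, and 3 tRNAs, MT-TQ, MT-TR and MT-TL2. MT-TQ differed most (log2 difference 1.52, SE 0.33, limma adjusted p = 0.00275), with 16.6, 20.4 and 27.7 in shCHD4#1 and 6.66, 5.42 and 8.42 in shCHD4#2. MT-ATP6 was 20960.4, 19589.7 and 24651 in shCHD4#1 and 16024, 10402 and 17200 in shCHD4#2 (log2 difference 0.61, SE 0.23, limma adjusted p = 0.0464), with no overlap. MT-ND5 was 9067, 8018 and 7580.3 in shCHD4#1 and 7136, 3617 and 5181 in shCHD4#2 (log2 difference 0.68, SE 0.23, limma adjusted p = 0.0321), likewise apart. The other log2 differences were 0.57 for MT-ND2, 0.70 for MT-ND4L, 0.55 for MT-CO3, 0.88 for MT-TR and 1.03 for MT-TL2. Over their ranges 17 members were higher in every shCHD4#1 library and 0 lower, against 24.2% and 24.3% of all genes, and the median over all members was 0.54, against -0.0012 over all genes. With the replicate block and shFLI1 left out, 18 members were called, again all higher with shCHD4#1, against 46.3% of all genes in that fit. The MT-TQ and MT-TR calls held when any 1 library was left out, and each of the other 6 was lost in at least 3 such fits, always without shCHD4#1 replicate 2 and shCHD4#2 replicate 2, among others. The count dropped to 2 without shCHD4#1 replicate 2 or shCHD4#2 replicate 2, to 4 without shCHD4#1 replicate 1 or 3, and to 5 without shScramble replicate 3, which enters only through the shared spread. CHD4 itself stood at 2959 to 3482 and 2722 to 2801 normalised counts in these 2 groups. The change of the CHD4 mean difference from 24 to 48 h was called for no member by limma (1 at an unadjusted p of 0.05), edgeR or DESeq2. The limma background of that test was 0% of genes, and 1819 of the 21025 genes tested had an unadjusted p under 0.05.

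shFLI1 was also compared with the mean of both CHD4 hairpins, which does not use the shScramble libraries for the difference. At 48 h, 11 members differed, 2 higher and 9 lower with shFLI1, 30.6% of those tested against 65.7% of all genes (32.9% higher and 32.8% lower). Both rRNAs were among them, MT-RNR1 (log2 difference 0.82, SE 0.19, limma adjusted p = 0.00131) and MT-RNR2 (log2 difference 0.45, SE 0.19, limma adjusted p = 0.0486). MT-ND6 (log2 difference -1.94, SE 0.26, limma adjusted p = 1.58e-05), MT-TP (log2 difference -1.94, SE 0.22, limma adjusted p = 2.33e-06) and MT-TE (log2 difference -2.04, SE 0.37, limma adjusted p = 2.03e-04) lay lowest. MT-TF (-1.47), MT-TL1 (-0.95), MT-ND2 (-0.93), MT-TK (-0.86), MT-TI (-0.83) and MT-CO2 (-0.43) were lower as well. Over the 14 fits that left out 1 library of the time, shScramble included, the call of MT-RNR2 was lost in 11, that of MT-TI in 10 and that of MT-CO2 in 4, and without shFLI1 replicate 1 they stood at 0.41 (limma adjusted p = 0.108), -0.72 (adjusted p = 0.152) and -0.37 (adjusted p = 0.116). At 24 h, 6 members differed, against 52.9% of all genes (28% higher and 24.8% lower): MT-ND6 (-0.81), MT-TF (-0.62), MT-TE (-0.64) and MT-TL1 (-0.35) were lower with shFLI1, and MT-TA (0.81) and MT-TH (1.02) higher. The MT-ND6 call held in all 14 fits that left out 1 library, those of MT-TF and MT-TL1 were lost without shFLI1 replicate 3 (-0.45 and -0.22), and MT-TA, MT-TH and MT-TE stood at 0.80, 0.39 and -0.37 without shFLI1 replicate 2, none of them then called. That count was 3 without shFLI1 replicate 1 or 2 and 11 without replicate 3. The comparisons of 1 time share libraries, so their values are given side by side and were not set against each other.

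The nuclear genes that express the mitochondrial genome were described from lists chosen with earlier results of these data in view. Of 20 genes of mitochondrial transcription and replication, 14 fell and 1 rose at 24 h of shFLI1 (median log2 difference -0.50), and 15 fell and 0 rose at 48 h (median -0.74). At 48 h the fall included POLRMT, the mitochondrial RNA polymerase (-1.58, SE 0.14, limma adjusted p = 2.73e-07), TFB2M, which opens promoters with it (-1.10, SE 0.08, adjusted p = 2.20e-08), and TWNK, the replicative helicase (-1.87, SE 0.14, adjusted p = 5.14e-08). POLRMT normalised counts were 2154 to 3291 in shScramble and 918 to 932 in shFLI1 at 48 h, with no overlap. The rRNA methyltransferase TFB1M (-1.05) and the single-stranded DNA binding protein SSBP1 (-0.97) fell too. At 24 h POLRMT (-1.25), TWNK (-1.92), TFB2M (-0.95) and the termination factor MTERF1 (-0.50) were already lower, and the primase PRIMPOL was the gene that rose (0.70). The background in these comparisons was 22.5% of all genes lower and 24.2% higher at 24 h, and 31.7% and 32.2% at 48 h.

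Of 32 genes of mitochondrial RNA processing, stability and decay, 23 fell and 1 rose at 24 h of shFLI1 (median -0.62), and 27 fell and 2 rose at 48 h (median -0.97). At 48 h TRMT10C, a subunit of mitochondrial RNase P, fell by 1.36 on the log2 scale (SE 0.08, limma adjusted p = 2.43e-09), and PNPT1, the exonuclease of the mitochondrial degradosome, fell by 2.22 (SE 0.12, adjusted p = 1.51e-09). PNPT1 normalised counts were 3575 to 5001 in shScramble and 874 to 1091 in shFLI1, with no overlap. SLIRP, the partner of LRPPRC in mRNA stability (-1.65), MTPAP, the poly(A) polymerase (-1.13), and MRM1, which methylates the 16S rRNA (-2.34), fell as well. At 24 h the 5 with the smallest adjusted p were TRMT10C (-1.10), PNPT1 (-1.45), MTPAP (-0.76), FASTKD2 (-0.85) and MRM1 (-1.65), all lower. Of the 8 nuclear regulators of biogenesis, 4 fell and 2 rose at 24 h, and 4 fell and 1 rose at 48 h. At 48 h the coactivators PPARGC1B (-4.07) and PPRC1 (-1.52), the receptor ESRRA (-1.08) and MYC (-3.27) fell, and the coactivator PPARGC1A rose (5.19, SE 1.09, limma adjusted p = 7.79e-04). PPARGC1A normalised counts were 0 to 6.18 in shScramble and 28.3 to 1242 in shFLI1 at 48 h. Its mean over all 28 libraries, 48.8, came mostly from the library at 1242. Without that library PPARGC1A would have been under the minimum for testing, so its adjusted p lends the rise no support.

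The same nuclear lists were counted with the CHD4 hairpins, where a smaller share of all genes was called than with shFLI1 (11.3% with shCHD4#1 and 11.1% with shCHD4#2 at 24 h, and 28.4% and 37.9% at 48 h, against 46.7% and 63.9%). At 24 h, 4 of the 20 transcription genes fell and 0 rose, and 1 of the 32 processing genes fell and 0 rose with shCHD4#1, and 1 of the 20 transcription genes fell and 0 rose, and 0 of the 32 processing genes fell and 1 rose with shCHD4#2. At 48 h with shCHD4#1, 7 of the 20 transcription genes fell and 0 rose, and 4 of the 32 processing genes fell and 2 rose (medians -0.15 and -0.07), against 15.5% of all genes lower and 12.9% higher. The factor MTERF3 (-0.80), MTRES1 (-0.69) and the exonuclease MGME1 (-0.61) had the smallest adjusted p among the transcription and replication genes. At 48 h with shCHD4#2, 4 of the 20 transcription genes fell and 5 rose, and 2 of the 32 processing genes fell and 9 rose (medians 0.08 and 0.18), against 20.3% of all genes lower and 17.5% higher, so the counts of the transcription genes were near the background. Those that rose with shCHD4#2 included TFB2M (0.51), the elongation factor TEFM (0.47), the protease LONP1 (0.51) and LRPPRC (0.38). MTRES1 (-0.57) and the pseudouridine synthase RPUSD3 (-0.72) were lower with shCHD4#2, and RPUSD3 was at -0.71 with shCHD4#1. MYC fell with both hairpins at 48 h (-0.52 with shCHD4#1 and -0.54 with shCHD4#2), as did GABPA, a transcription factor subunit that activates nuclear genes of the mitochondrion (-0.70 and -0.61).

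**Figure D5:**
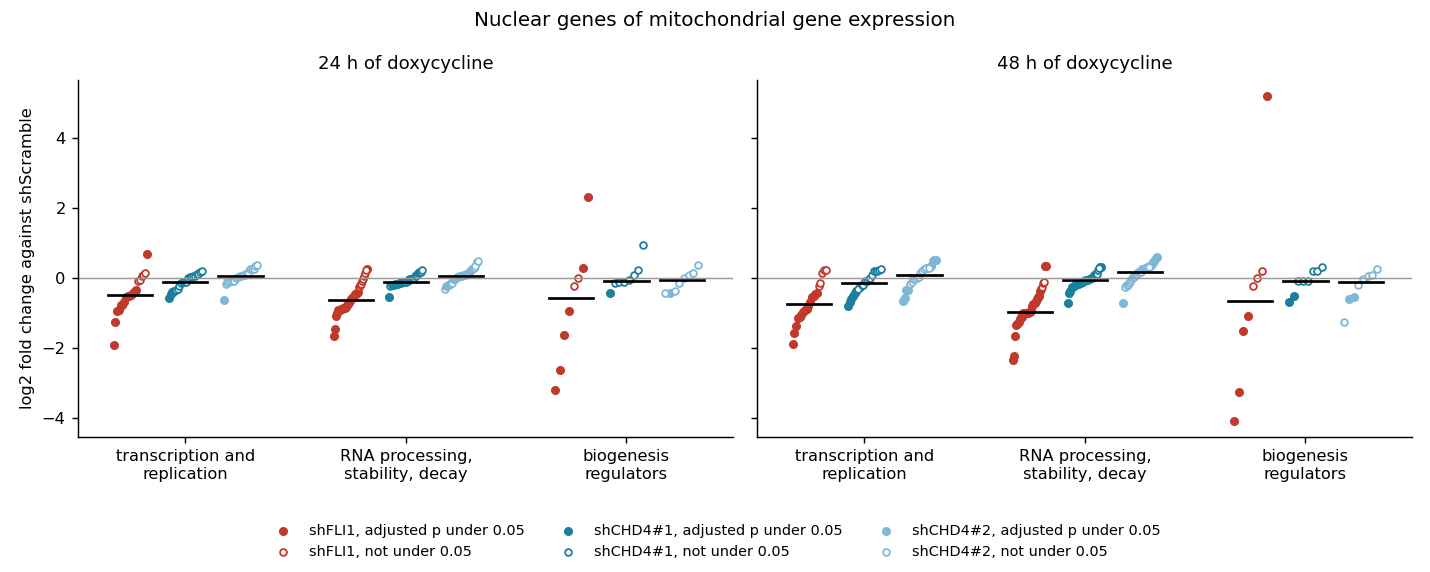
Log2 difference from shScramble (vertical axis, log2 of normalised count + 1) of each nuclear gene of the 3 lists, for the 3 knockdowns at 24 h and 48 h; filled points passed the test and short lines are list medians. With shFLI1 at 48 h the medians lie at -0.74 for transcription and replication and -0.97 for RNA processing, stability and decay.

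Other classes of RNA were read beside the mitochondrial ones at 48 h of shFLI1, where 32.2% of all genes were higher and 31.7% lower, and their part in the mitochondrial results was not tested. Of the 10 tested entries for short structured nuclear RNAs, RMRP counted under 2 identifiers, 3 rose and 2 fell: RN7SK, which restrains transcription elongation (0.96), RPPH1, the RNA of nuclear RNase P (0.72), and SCARNA2 (0.52) rose, and the Y RNAs RNY1 (-0.81) and RNY3 (-1.12) fell. RN7SK normalised counts were 304737 to 372210 in shScramble and 593266 to 783017 in shFLI1. At 24 h none of the 10 was called with limma, and their median difference was 0.06. All 3 long nuclear-retained RNAs tested rose at 48 h, MALAT1 (1.03), NEAT1 (2.53) and KCNQ1OT1 (0.64). The 5.8S rRNA of the cytosolic ribosome, summed over 5 gene copies and chosen after its values were seen, was at 2344 to 4331 normalised counts in shScramble and 724 to 1762 in shFLI1 at 48 h, and 1546 to 3669 and 898 to 1391 at 24 h. Thus mitochondrial rRNA was high and this cytosolic rRNA low in the same shFLI1 libraries. Nuclear copies of mitochondrial genes, whose reads can be shared with the members, numbered 54 in the table, of which 10 were tested, and 4 fell and 0 rose with shFLI1 at 48 h: MTCO2P12 (-1.95), MTCO3P12 (-1.71), MTND2P28 (-1.08) and MTATP6P1 (-0.43). They copy the members MT-CO2, MT-CO3, MT-ND2 and MT-ATP6, of which the first 3 were called lower in the same comparison, and how shared reads were assigned is not given in the sources used here.

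Library kind touched some members at 24 h. Among the shScramble and CHD4 libraries of 24 h, MT-CYB was at 14287 to 17734 normalised counts in the 6 of the first kind and 6274 to 10883 in the 5 of the second, and MT-TT was at 179 to 343 and 114 to 148. MT-TP, at 40.2 to 56.2 and 61.7 to 105, and MT-TQ, MT-TM, MT-TR and MT-TL2 were higher in every library of the second kind. No member was apart in this way at 48 h. Restricted to libraries of the second kind, the 48 h shFLI1 differences were -2.38 for MT-ND6 (limma adjusted p = 7.25e-05), -2.50 for MT-TP (adjusted p = 6.21e-05) and 0.94 for MT-RNR1 (adjusted p = 1.53e-04), so these 3 calls held there.

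In the authors' deposited table of shFLI1 against shScramble at 48 h, 2 members had an adjusted p under 0.05, both lower: MT-ND6 (log2 fold change -1.68, adjusted p = 1.44e-04) and MT-TP (-1.69, adjusted p = 0.00508). These are 2 of the 37 members, against 16.46% of all genes in that comparison, so the members' share was under that of all genes. No member had an adjusted p under 0.05 in the authors' deposited tables of the CHD4 hairpins at 48 h. Of all genes, 2.67% had one with shCHD4#1 and 4.35% with shCHD4#2. In the authors' deposited table for shFLI1 at 48 h, 36.9% of all genes have a p-value of exactly 1, and how those p-values were made is not stated in the sources used here.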

How the data were processed

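Total RNA of 28 libraries was sequenced in paired ends after column extraction with DNase and a stranded total RNA kit, per the labels' protocols. The submitters' processing notes list GRCh38, the aligner HISAT2 2.1.0, the read counter featureCounts 1.6.0, DESeq2 1.34.0, SAMtools 1.7 and FastQC 0.11.7. No setting, strand included, is given in the sources used here. The deposited signal is a gene count that the authors divided by 1 size factor per library. The smaller values of every library came out as whole reads (100% within 0.02 of a whole number). Larger values, the rRNAs among them, were rounded to whole reads without that check. The 24 h and 48 h tables hold the same values for the same 35488 genes. The authors' deposited comparison tables give a base mean, a log2 fold change, a p-value and in 1 case a score per gene. The one named for shFLI1 at 24 h holds shScramble at 48 h against 24 h by its values and was not used.

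The main test was limma 3.58.1 (R 4.3.3, trend) on log2(value + 1), so differences of genes with few reads are understated. It was fitted per time over all 4 groups, or over all 8 for the change between times, on the 21025 genes with a mean of at least 10, with Benjamini-Hochberg adjustment over all of them and a threshold of 0.05. The recovered reads were tested with edgeR 4.0.16 (quasi-likelihood) and DESeq2 1.42.0. The other alternatives changed the pseudocount, the filter, the scaling, the libraries in the fit, library kind and the replicate block. The limma procedure was also run on simulated reads. These had the same dispersion for every gene and neither library kinds nor shared replicate numbers, so that run cannot show how the test behaves with these libraries. No 2 libraries of a group agreed within sampling noise. The labels call the replicates biological but name no separate cultures or days, so p-values measure the spread between these samples.

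Same-numbered libraries of shScramble and the CHD4 hairpins deviated together (all 9 pairs with a correlation over 0.1 at each time, medians 0.420 at 24 h and 0.384 at 48 h), whereas those with shFLI1 did not (1 of 9 pairs at 24 h and 0 of 9 at 48 h). Of the different-numbered pairs without shFLI1, 10 of 30 at 24 h and 6 of 30 at 48 h also had a correlation over 0.1 (medians -0.278 and -0.098). Same-numbered libraries of shScramble and the CHD4 hairpins also share their library kind, whereas not all same-numbered pairs with shFLI1 do. These correlations therefore cannot separate pairing by number from library kind. A blocked fit of shScramble and the CHD4 hairpins, 3 groups, was added after seeing the data.

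Both rRNAs and all 13 mRNAs are named, with the 4 tRNAs of the highest mean and any that passed in shFLI1 at 48 h, or with both CHD4 hairpins in one direction, without overlap. From each nuclear list up to 5 genes per comparison with the smallest adjusted p are named. Other members named were chosen after their values were seen. The members and lists were chosen with earlier results of these data known.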

Additional observations from a re-analysis of the deposited data

Results flagged for a closer look

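In 5 of 80 sets of 5 shScramble values, 1 library stood far from the other 4, where chance gives about 1 in 20, or 4. These were MT-TT at 339 normalised counts (replicate 1, high) at 24 h, and at 48 h MT-TT at 397 (replicate 1, high), MT-RNR2 at 7653745 (replicate 2, low), MT-ND1 at 41128 (replicate 5, high) and MT-TM, the methionine tRNA, at 409 (replicate 4, high). A different gene was high or low in each, except that MT-TT was high in replicate 1 at both times.

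For 4 members the shFLI1 difference changed between the times in the test of that change (limma, adjusted p under 0.05). On the log2 scale, the 48 h difference minus the 24 h difference was 0.74 for MT-RNR1, -1.46 for MT-TH, -1.37 for MT-ND6 and -1.61 for MT-TP.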

How the results depend on the processing

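Of 130 alternative settings for the 13 counts of members called, 115 stayed within 1.5 times the count reported, and the other 15 are named here with the added blocked fits. With library kind as a term, 12 members were called with shFLI1 at 24 h, where 5926 of the 21025 genes tested were higher and 6022 lower. The same term gave 1 member with shCHD4#1 at 24 h and 8 at 48 h, 14 between the CHD4 hairpins at 48 h and 8 for the change of the shFLI1 difference between times. Of all genes with that term, 1994 were higher and 2537 lower with shCHD4#1 at 24 h, and 3270 and 3842 at 48 h. The numbers were 4877 and 4903 between the hairpins at 48 h, and 2553 and 3039 for the change. With libraries of the second kind alone, each CHD4 group is 1 library (replicate 3), assumed to vary like the shScramble and shFLI1 groups, and 3 were called with shCHD4#2 at 48 h, 5 between the hairpins at 48 h and 17 between shFLI1 and the CHD4 mean at 48 h, and the rRNA share relative to shScramble at 48 h was 1.18 with the 1 shCHD4#1 library and 1.08 with the 1 shCHD4#2 library. On normalised counts the latter was 0.940. With no filter on low values, 5 were called between the hairpins at 48 h and 2 for the change between times. Of the 35488 genes in that fit, 4370 were higher and 3905 lower between the hairpins, and 1736 and 1782 for the change. Scaling to total reads gave 7 with shCHD4#1 at 48 h and 8 for the change between times, median centring 7 and DESeq2 7 for that change. Over all genes, scaling to total reads called 3678 higher and 2422 lower with shCHD4#1 at 48 h, and 1227 and 2850 for the change. For the same change, median centring called 1380 higher and 2249 lower, and DESeq2 1993 and 2125. The causes were not tested. Scaling to total reads moved the median log2 difference of all genes with shCHD4#2 at 48 h from 0.0070 to 0.11, with higher against lower calls of 5102 to 3233 against 3688 to 4276, and median centring moved that with shFLI1 at 48 h from 0.0090 to -0.11.

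With the replicate number as a block and shFLI1 left out, 1 member was called with shCHD4#1 at 24 h, 9 with shCHD4#1, 9 with shCHD4#2 and 18 between the hairpins at 48 h. With all groups in the blocked fit, 9 were called for the change between times, and the other counts stayed within 1.5 times. For that change, 2361 of the 21025 genes tested were higher and 2773 lower in the same fit.

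Leaving out 1 library at a time, the count ran from 4 to 9 (shFLI1, 24 h), 0 to 1 (each CHD4 hairpin, 24 h), 3 to 11 (shFLI1 against the CHD4 mean, 24 h), 8 to 12 (shFLI1, 48 h, and shFLI1 against the CHD4 mean, 48 h), 1 to 8 (shCHD4#1, 48 h), 3 to 7 (shCHD4#2, 48 h), 2 to 11 (between the hairpins, 48 h) and 1 to 6 (change of the shFLI1 difference, with 2 without shScramble 24 h replicate 3 and 1 without shFLI1 48 h replicate 1). It stayed at 0 between the hairpins at 24 h, for the change of the CHD4 difference and within shScramble. The tRNAs of few reads limit what this depth can show.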
